A study of Homo sapiens with 8 samples.

Results

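Of the 9 genes described here, 4 are the TRAIL receptor genes TNFRSF10A, TNFRSF10B, TNFRSF10C and TNFRSF10D, and the non-coding gene CHILL1 lies beside them on chromosome 8. The others are the death receptor genes FAS and TNFRSF1A, and CASP8 and CFLAR, whose products act downstream of death receptors. These 9 are among the 58302 genes with an identifier in each table and were found by their Ensembl identifiers. CHILL1 (ENSG00000253616) was chosen by its FPKM values with and without sorafenib, so its values are described without a test in every comparison. The other 8 were included for their family or their pathway, with earlier results of these data known.

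Messenger RNA was sequenced from SK-Hep1, an established human cell line from a tumour of the liver. Control cells and cells expressing ectopic SLC29A2, the gene of an equilibrative nucleoside transporter, were each treated in 4 ways: as control, with sorafenib, with dipyridamole, or with sorafenib and dipyridamole together. Sorafenib inhibits several kinases, and dipyridamole inhibits nucleoside transport and phosphodiesterases. This gave 8 libraries, 1 for each of 8 conditions, and therefore no replicates. The sources used here do not give the doses, the treatment times, the promoter that drives SLC29A2, the number of clones or whether the cultures were separate.

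TRAIL and FAS ligand are secreted or surface ligands that can kill tumour cells. TNFRSF10A (DR4) and TNFRSF10B (DR5) bind TRAIL and carry a cytoplasmic death domain, as do FAS and the TNF receptor TNFRSF1A, whereas TNFRSF10C (DcR1) lacks a cytoplasmic tail, TNFRSF10D (DcR2) has a truncated death domain, and both are known as decoys. Ligand-bound FAS, TNFRSF10A or TNFRSF10B recruits the adaptor FADD and the initiator caspase CASP8 into a complex. In that complex the caspase-like protein CFLAR (FLIP) competes with CASP8. TNFRSF1A first binds another adaptor, TRADD.

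Libraries held 14.07 to 16.69 M reads as implied by the deposited values. SLC29A2 took 0.002% of reads in the 4 control-cell libraries and 0.353% to 0.727% in the 4 libraries labelled as expressing it. Both control-cell libraries given dipyridamole stood apart, with 2.48% and 2.68% of reads in non-coding genes against 1.6% to 1.93% in the other 6, and with 23766 and 24801 genes above 0 against 22613 to 23514. Of 7 endothelial and 8 hepatocyte markers, 1 each reached a mean of 1 FPKM (TIE1 and SERPINA1), and ALB, the albumin gene, did not exceed 0.111 FPKM. Of 5 epithelial markers the keratin genes KRT8, KRT18 and KRT19 were detected, and of 5 leukocyte markers only CD14 reached a mean of 1 FPKM, with CD3E at 0. The values describe whole cultures, so less RNA per cell and fewer cells of a kind cannot be told apart.

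Levels are given as FPKM, sequenced fragments per kilobase of a gene's length and per library total. For most genes the lengths that gave whole reads were means over the annotated transcripts. An order of genes by FPKM therefore depends on those lengths. In control cells on control treatment, TNFRSF10B had 5046 reads and 185 FPKM, and TNFRSF10D had 2031 reads and 34.4 FPKM. TNFRSF10B had the highest mean of the 9, 250 ± 37.1 FPKM (SD over the 8 libraries). TNFRSF1A followed with 162 ± 47.7 and CFLAR with 138 ± 27.9. The ranges of TNFRSF10B and TNFRSF1A overlapped, as did those of TNFRSF1A and CFLAR, so neither pair of neighbours in this order was separated beyond its spread.

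Next came TNFRSF10D with 37.1 ± 11.4, FAS with 34.2 ± 14.8, CASP8 with 28.3 ± 4.44 and TNFRSF10A with 25.2 ± 5.85 FPKM. These 4 overlapped with each other, and in each library all of them lay below CFLAR and above TNFRSF10C. TNFRSF10C had a mean of 8.52 ± 3.99 FPKM and CHILL1 of 4.59 ± 6.75, with overlapping ranges, and the highest library of TNFRSF10C (15.7) lay just above the lowest of FAS (15.3). All 9 passed the minimum mean of 1 FPKM used for testing, but CHILL1 did so through the libraries given sorafenib, since its mean was 0.412 FPKM in the 4 libraries without it.

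**Figure D1:**
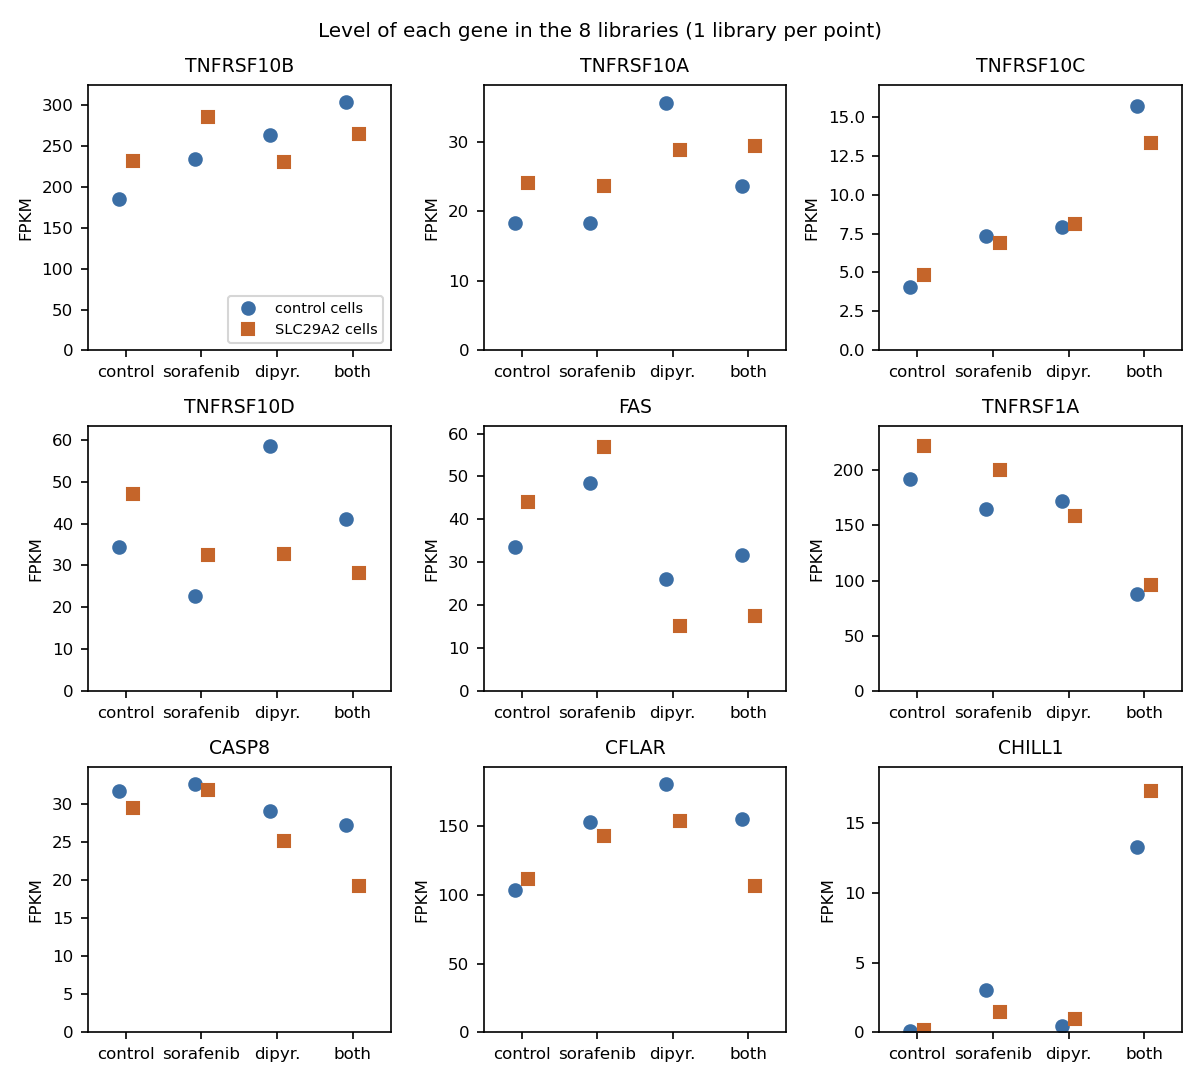
Level of each of the 9 genes in FPKM (linear vertical axes from 0) by treatment, with 1 library per point, circles for control cells and squares for SLC29A2 cells. TNFRSF10C and CHILL1 are highest, and TNFRSF1A is lowest, in the libraries given both drugs.

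For each factor there were 4 pairs of libraries alike in everything else. Effects are differences in log2(FPKM + 1), which understate the changes of genes with low FPKM, and were fitted with limma over all 13899 genes whose mean reached 1 FPKM. Adjusted p-values are two-sided with Benjamini-Hochberg adjustment over those genes at a threshold of 0.05, and errors are standard errors. With no replicates the error term held any interaction of the factors.

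With dipyridamole, 4 of the 8 genes other than CHILL1 passed the threshold. TNFRSF10C and TNFRSF10A rose, and FAS and TNFRSF1A fell. Over all genes tested 30% passed in the same comparison, 17.5% higher and 12.6% lower. The median effect was 0.20 over the 8 genes and 0.07 over all genes. TNFRSF10C, FAS and TNFRSF1A held their calls whichever single library was left out, whereas TNFRSF10A did not. The TNFRSF1A call was lost without the filter on low values (adjusted p = 0.0518).

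With sorafenib, 1 of the 8 genes passed, TNFRSF10C, which rose. Over all genes tested 8.11% passed, 5.94% higher and 2.17% lower, and the median effect was -0.02 over the 8 genes against 0.09 over all genes. Of all calls 73.2% were higher with sorafenib and 58.2% with dipyridamole, and 47.6% and 44.7% with median-of-ratios size factors. At an unadjusted p under 0.05 in limma there were 2 of the 8, TNFRSF10C and TNFRSF1A, against 3702 of all 13899. None of the 8 passed between SLC29A2 and control cells in limma, where 0.00719% of all genes did, the adjusted p-values lay between 0.965 and 0.996, and neither an unadjusted p under 0.05 nor voom on recovered reads called any.

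**Figure D2:**
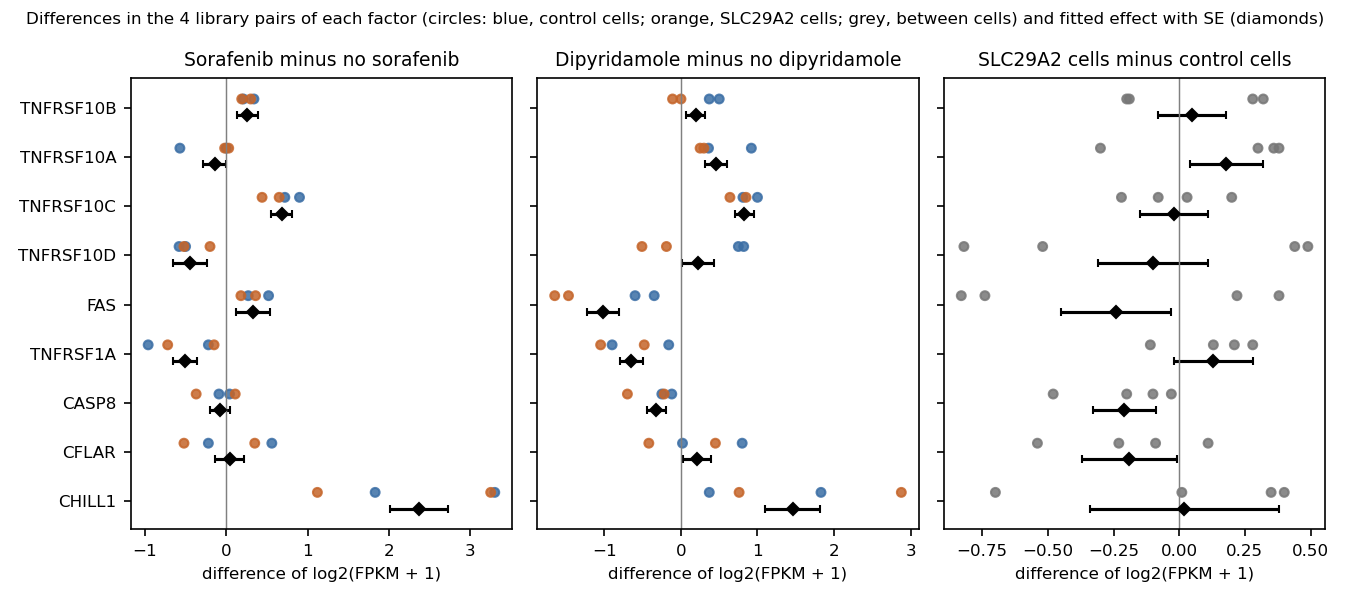
Differences in log2(FPKM + 1) for the 9 genes in the 4 library pairs of each factor (circles, blue for pairs within control cells, orange within SLC29A2 cells, grey between the cells), with the fitted effect and its standard error (diamonds and bars). All 4 circles lie on 1 side of 0 for TNFRSF10C with each drug, whereas for TNFRSF10D with dipyridamole the control-cell pairs lie above 0 and the SLC29A2-cell pairs below it.

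TNFRSF10B, the DR5 gene, stood at 185 FPKM in control cells on control treatment, at 234 with sorafenib, at 263 with dipyridamole and at 304 with both drugs. The corresponding values in SLC29A2 cells were 231.5, 285, 230.7 and 264 FPKM. By FPKM the sorafenib libraries were the higher of their pair in 4 of 4 pairs, but the groups with and without sorafenib overlapped. In control cells with dipyridamole the ratio was 1.15. The median-of-ratios size factors of those libraries were 1.032 on dipyridamole and 1.207 on both drugs. Scaled by these factors, that pair would not be higher with sorafenib. The sorafenib effect was 0.26 ± 0.13 on the log2 scale and did not pass (limma adjusted p = 0.228).

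Dipyridamole gave differences for TNFRSF10B of 0.50 and 0.37 in control cells and of 0 and -0.11 in SLC29A2 cells, with a fitted effect of 0.19 ± 0.13 (limma adjusted p = 0.284). The difference between the cells, as a dipyridamole by cell type interaction, was -0.50 ± 0.16 and did not pass (adjusted p = 0.164). These values rest on 5046 to 7419 reads per library. By position TNFRSF10B spans 23020133 to 23069179 on the minus strand of chromosome 8 in GRCh38, and 1.3% of its exon bases overlap RHOBTB2 on the other strand.

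TNFRSF10A, the DR4 gene, had 18.2 FPKM on control treatment and 18.3 with sorafenib in control cells, against 35.5 with dipyridamole and 23.7 with both drugs. SLC29A2 cells had 24.0, 23.6, 28.7 and 29.4 FPKM in that order. The control-cell dipyridamole library was the highest of the 8, and the groups with and without dipyridamole overlapped by the single library of control cells given both drugs. Dipyridamole raised TNFRSF10A by 0.46 ± 0.14 (limma adjusted p = 0.0347), with all 4 pairs higher, by 0.25 to 0.92.

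This TNFRSF10A call was lost when the library of control cells on control treatment (adjusted p = 0.101), on sorafenib (0.0898) or on dipyridamole (0.0774) was left out, as it was without that of SLC29A2 cells on control treatment (0.0717) or both drugs (0.0639). Without both control-cell dipyridamole libraries the TNFRSF10A effect was 0.28 (0.124), and the call was also lost with median-of-ratios size factors (0.0764), without the filter on low values (0.0949) and without the variance trend (0.0501). Sorafenib gave -0.14 ± 0.14 for this gene (limma adjusted p = 0.563). The antisense genes TNFRSF10A-AS1 and TNFRSF10A-DT overlap 7.59% and 9.01% of its exon bases, and reads there cannot be assigned to a strand.

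TNFRSF10C, the decoy without a cytoplasmic tail, had 4.085 FPKM on control treatment in control cells, 7.35 with sorafenib, 7.93 with dipyridamole and 15.7 with both drugs. In the SLC29A2 cells its levels were 4.84, 6.92, 8.1 and 13.3 FPKM. Each drug alone thus lay above the control treatment in both cells, the libraries given both drugs were the highest, and the libraries with dipyridamole did not overlap those without it. Relative to its own partner each dipyridamole library was 1.68 to 2.13 times as high and each sorafenib library 1.43 to 1.98 times.

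The dipyridamole effect on TNFRSF10C was 0.83 ± 0.13 (limma adjusted p = 0.0019) and the sorafenib effect 0.68 ± 0.13 (limma adjusted p = 0.0199), each with 4 of 4 pairs higher. The interaction of the drugs was 0.20 ± 0.23 (adjusted p = 0.759). The dipyridamole call held without any single library, with adjusted p-values up to 0.00898. The sorafenib call was lost without the control-cell library given sorafenib (0.69, adjusted p = 0.0542), dipyridamole (0.64, 0.0792) or both drugs (0.6, 0.0741), and without the SLC29A2-cell dipyridamole library (0.66, 0.0657). It was also lost without both control-cell dipyridamole libraries (0.60, 0.0724) and without the filter on low values (0.0725).

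These values of TNFRSF10C rest on 66 to 227 reads per library, the fewest among the 8 protein-coding genes. Of the 50-base stretches in its annotated transcripts, 35.4% also occur in 1 or more of the overlapping annotated genes on the same strand, which were not analysed here, and 0% in any gene that was. Its level relative to the other receptors depends on the length the authors used, which the read steps put at 968 bases.

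TNFRSF10D is the decoy with a truncated death domain. Control cells had 34.4 FPKM on control treatment, 22.75 with sorafenib, 58.5 with dipyridamole and 41.05 with both drugs, and SLC29A2 cells had 47.0, 32.4, 32.7 and 28.3. The sorafenib library was the lower of its pair in 4 of 4 pairs, by 0.20 to 0.58, but the groups overlapped and the effect of -0.45 ± 0.21 did not pass (limma adjusted p = 0.216).

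With dipyridamole TNFRSF10D was higher in both control-cell pairs, by 0.75 and 0.82, and lower in both SLC29A2-cell pairs, with differences of -0.51 and -0.19. The common effect was 0.22 ± 0.21 (limma adjusted p = 0.471), and it was -0.35 without both control-cell dipyridamole libraries. The dipyridamole by cell type interaction was -1.14 ± 0.18, which did not pass (adjusted p = 0.106). The share of reads in non-coding genes was raised in the same control-cell libraries, and its part in the result was not tested.

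Summed over the 4 TRAIL receptor genes, the level was 242, 283, 365 and 384 FPKM in control cells and 307, 348, 300.2 and 335 in SLC29A2 cells, in the order control, sorafenib, dipyridamole, both drugs. TNFRSF10B supplied 72.1% to 82.9% of that sum. Its share was 78.8% to 82.9% in the 4 libraries with sorafenib and 72.1% to 76.8% in the 4 without, which did not overlap. The decoys together supplied 10.6% to 14.8% with sorafenib and 13.6% to 18.2% without, and the ratio of TNFRSF10C to TNFRSF10D ranged from 0.103 in SLC29A2 cells on control treatment to 0.47 in the same cells given both drugs. The sums are of FPKM not scaled by size factors. The sums, shares and ratios also depend on the gene lengths used, and they are descriptions without a test.

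FAS, the receptor of FAS ligand, had 33.6 FPKM on control treatment in control cells, 48.5 with sorafenib, 26.1 with dipyridamole and 31.7 with both drugs. SLC29A2 cells gave 44.1, 56.8, 15.3 and 17.4 FPKM for it. All 4 libraries with dipyridamole lay below all 4 without it, and the lowest were those of SLC29A2 cells. FAS fell by 1.02 ± 0.21 on the log2 scale with dipyridamole (limma adjusted p = 0.00657), and its call held without any single library (adjusted p up to 0.0318).

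The FAS difference was -0.35 and -0.60 in the control-cell pairs and -1.47 and -1.65 in the SLC29A2-cell pairs, which kept 34.6% and 30.7% of the partner's level. That difference between the cells was -1.09 ± 0.18 as an interaction and did not pass (limma adjusted p = 0.106). Sorafenib libraries were higher in 4 of 4 pairs, by 0.18 to 0.52, with a fitted effect of 0.33 ± 0.21 (adjusted p = 0.339). FAS spans 88990582 to 89015785 on the plus strand of chromosome 10, and ACTA2, which overlaps 8.93% of its exon bases on the other strand, had 2.48 to 8.6 FPKM.

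TNFRSF1A, the main receptor of TNF, had 192 FPKM on control treatment in control cells, 165 with sorafenib, 171 with dipyridamole and 87.7 with both drugs. It had 222, 200.2, 158 and 96.0 FPKM in SLC29A2 cells. The libraries given both drugs were the lowest in both cells, and the groups with and without dipyridamole overlapped. TNFRSF1A fell by 0.65 ± 0.15 with dipyridamole (limma adjusted p = 0.0113), and every single library could be left out without losing the call (adjusted p up to 0.0449).

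Sorafenib libraries were the lower for TNFRSF1A in 4 of 4 pairs, with an effect of -0.51 ± 0.15 that missed the threshold (limma adjusted p = 0.0684). It passed when the SLC29A2-cell sorafenib library was left out (-0.63, adjusted p = 0.04) and with voom on recovered reads (adjusted p = 0.0434). The sorafenib differences were -0.22 and -0.15 without dipyridamole and -0.96 and -0.72 with it, in control and SLC29A2 cells. The interaction of the drugs was -0.66 ± 0.19 and did not pass over all genes (adjusted p = 0.261), a comparison in which 0.0863% of all genes did, 0.0288% higher and 0.0576% lower.

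The promoter stretches of FAS and TNFRSF1A are shown because these were the receptor genes that fell with dipyridamole. Each is the part of the RefSeq promoter window (GRCh38.p14) directly before the annotated gene start that lies in no annotated exon, at chr10:88990548-88990581 on the plus strand for FAS and chr12:6342115-6342326 on the minus strand for TNFRSF1A. Capitals mark a match on either strand to TGANTCA, a loose form of the AP-1 site in which N is any base. The FAS match has A at that position, so it is not called an AP-1 site here.
FAS: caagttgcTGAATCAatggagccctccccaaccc
TNFRSF1A: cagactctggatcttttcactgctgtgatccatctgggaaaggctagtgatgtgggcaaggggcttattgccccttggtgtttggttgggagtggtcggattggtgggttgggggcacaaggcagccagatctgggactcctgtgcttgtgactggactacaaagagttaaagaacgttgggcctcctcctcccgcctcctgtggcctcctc

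The FAS stretch holds 1 such match, and the TNFRSF1A stretch holds no match to any of the 4 motifs searched on both strands, which do not contain one another. Over windows of 300 bases, TGANTCA occurred in 1 of 3 FAS windows, in 0 of 1 for TNFRSF1A, in 2 of 3 for CASP8 and in 1 of 4 for CFLAR, against 7.71% of all 35116 promoter windows. The GC box GGGCGG occurred in 3 of 3, 0 of 1, 1 of 3 and 2 of 4 windows of the same genes, against 45.0% of all. The cAMP response element TGACGTCA (1.85% of all windows) and the C/EBP-ATF element TGATGNAA (3.62%) were in none of these 11 windows. A match describes letters only.

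CASP8 encodes the initiator caspase of these receptors. Its values were 31.7, 32.6, 29.1 and 27.3 FPKM in control cells and 29.4, 31.9, 25.2 and 19.2 in SLC29A2 cells, in the same order of treatments. All 4 dipyridamole libraries lay below all 4 others, yet the effect of -0.32 ± 0.12 did not pass (limma adjusted p = 0.0721). It passed with median-of-ratios size factors (-0.41, adjusted p = 0.0301). For sorafenib the effect was -0.08 ± 0.12 (adjusted p = 0.721), and SLC29A2 cells were lower in 4 of 4 pairs by 0.03 to 0.48.

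CFLAR, the competitor of CASP8, had 103 FPKM on control treatment, 153 with sorafenib, 180.2 with dipyridamole and 155 with both in control cells. SLC29A2 cells had 112, 143, 153.5 and 107 FPKM. Each drug alone lay above the control treatment in both cells, and both drugs together lay below dipyridamole alone. Sorafenib differences were 0.56 and 0.35 without dipyridamole and -0.22 and -0.52 with it. The interaction of the drugs was -0.83 ± 0.24, which did not pass (limma adjusted p = 0.257), and the separate effects were 0.04 ± 0.18 for sorafenib and 0.21 ± 0.18 for dipyridamole (adjusted p = 0.905 and 0.401).

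The ratio of CFLAR to CASP8 was 3.26, 4.68, 6.19 and 5.68 in control cells and 3.8, 4.49, 6.1 and 5.54 in SLC29A2 cells. It was 5.54 to 6.19 in the 4 libraries with dipyridamole and 3.26 to 4.68 in the 4 without, which did not overlap. The ratio of TNFRSF10B to FAS was 4.83 to 5.51 without dipyridamole and 9.57 to 15.1 with it, and that of TNFRSF10B to TNFRSF1A was 0.965 to 1.42 without it and 1.46 to 3.46 with it. No test was made of these ratios, whose size depends on the gene lengths used.

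CHILL1 is annotated as an antisense gene at 23071377 to 23074488 on the minus strand of chromosome 8, inside the body of ENSG00000246130 on the plus strand. It lies 2197 bases upstream of the start of TNFRSF10B, on the same strand. Its exons overlap those of no other annotated gene and share 0% of their 50-base stretches with one, and ENSG00000246130 itself had at most 0.253 FPKM and 11 reads.

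In control cells the CHILL1 level was 0.128 FPKM on control treatment, 3.02 with sorafenib, 0.457 with dipyridamole and 13.3 with both drugs, from 1, 22, 3 and 93 reads. SLC29A2 cells had 0.139, 1.48, 0.926 and 17.3 FPKM from 1, 10, 7 and 133 reads. Every library with sorafenib lay above every library without it, and the 2 libraries given both drugs stood far above the other 6.

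**Figure D3:**
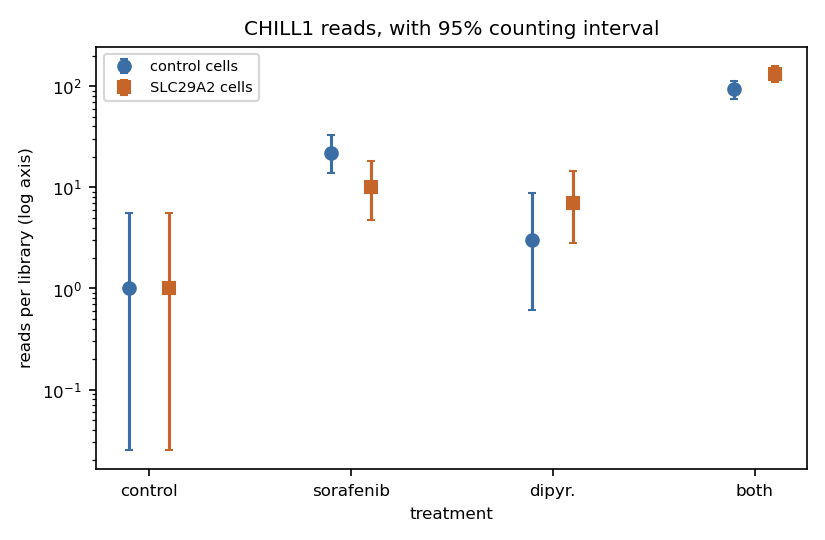
Reads on CHILL1 per library (logarithmic vertical axis) by treatment and cells, with exact 95% Poisson intervals, which cover counting error only. The libraries given both drugs, with 93 and 133 reads, lie above the intervals of the other 6.

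The ratio of CHILL1 with sorafenib to without it was 23.5 (exact 95% interval 3.8 to 971) in control cells without dipyridamole. It was 29.1 (9.67 to 144) in control cells with dipyridamole. In SLC29A2 cells the ratios were 10.6 (1.51 to 461) and 18.6 (8.8 to 47.3). The libraries on control treatment held single reads, and these intervals cover counting error between 2 libraries only and test no treatment. CHILL1 was chosen on this same comparison, so an interval clear of equal levels is no support for a difference. On the log2(FPKM + 1) scale the fitted sorafenib effect was 2.37 ± 0.36 and the interaction of the drugs 1.79 ± 0.42, both described without a test. With a pseudocount of 0.1 the sorafenib effect was 3.79. The size of the interaction depends on the pseudocount of 1, which exceeds the levels without sorafenib (0.128 to 0.926 FPKM). As ratios, the sorafenib differences without and with dipyridamole were 23.5 and 29.1 in control cells and 10.6 and 18.6 in SLC29A2 cells, with overlapping intervals.

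The ratio of CHILL1 with dipyridamole to without it was 4.41 (exact 95% interval 2.75 to 7.37) in control cells given sorafenib. It was 11.7 (6.16 to 24.9) in SLC29A2 cells given sorafenib. Without sorafenib the ratios were 3.56 (0.286 to 187) and 6.65 (0.854 to 299.7). Each interval covers counting error between single libraries only and tests no treatment. The ratios under sorafenib come from the libraries through which CHILL1 was chosen and passed the filter. On the log2(FPKM + 1) scale the fitted dipyridamole effect was 1.46 ± 0.36, and 2.24 with a pseudocount of 0.1. The dipyridamole library was the higher in 4 of 4 pairs, although the groups with and without dipyridamole overlapped.

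The 2 libraries given both drugs, highest for CHILL1 and TNFRSF10C and lowest for TNFRSF1A, also had the lowest shares of mitochondrial reads, 1.88% and 2.25% against 3.04% to 5.74%. Their shares of non-coding reads were 2.68% in control cells and 1.79% in SLC29A2 cells. The part of either share in the results was not tested.

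The 5 genes whose log2 levels followed CHILL1 most closely over the 8 libraries were FAM161B (Pearson r = 0.995), RAB11FIP1 (0.992), CSRNP2 (0.99), NDUFB5 (0.988) and RPL23AP82 (0.986). FAM161B had 3.41 and 3.7 FPKM with both drugs and 1.39 to 2.45 otherwise. For TNFRSF10B the closest were ARL10 (0.975), ILK (0.965), ASAH1 (0.962), METTL18 (0.962) and IFNGR1 (0.958). These are descriptions over libraries that share treatments, from the best of 13899 genes.

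Within 250 kb of CHILL1 the annotation held 19 genes with lines in the tables, of which 11 had a mean of at least 1 FPKM, 5 of them TRAIL receptor genes and CHILL1 itself. Of the other 6, LOXL2, the gene of a lysyl oxidase-like enzyme, fell with dipyridamole from 1102 ± 56.1 to 654.3 ± 55.3 FPKM (SD, n = 4 libraries; -0.75 ± 0.12, limma adjusted p = 0.00228), and no other passed for either drug. RHOBTB2, which overlaps the TNFRSF10B exons, had a dipyridamole effect of -0.37 ± 0.14 (adjusted p = 0.0793), which passed with size factors (-0.45, 0.0274). TNFRSF10A-AS1, at 4 to 27 reads per library, had a sorafenib effect of 0.75 ± 0.21 (adjusted p = 0.0588) with no overlap between groups. R3HCC1, CHMP7 and TNFRSF10A-DT had effects between -0.07 and 0.26 for the 2 drugs.

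**Figure D4:**
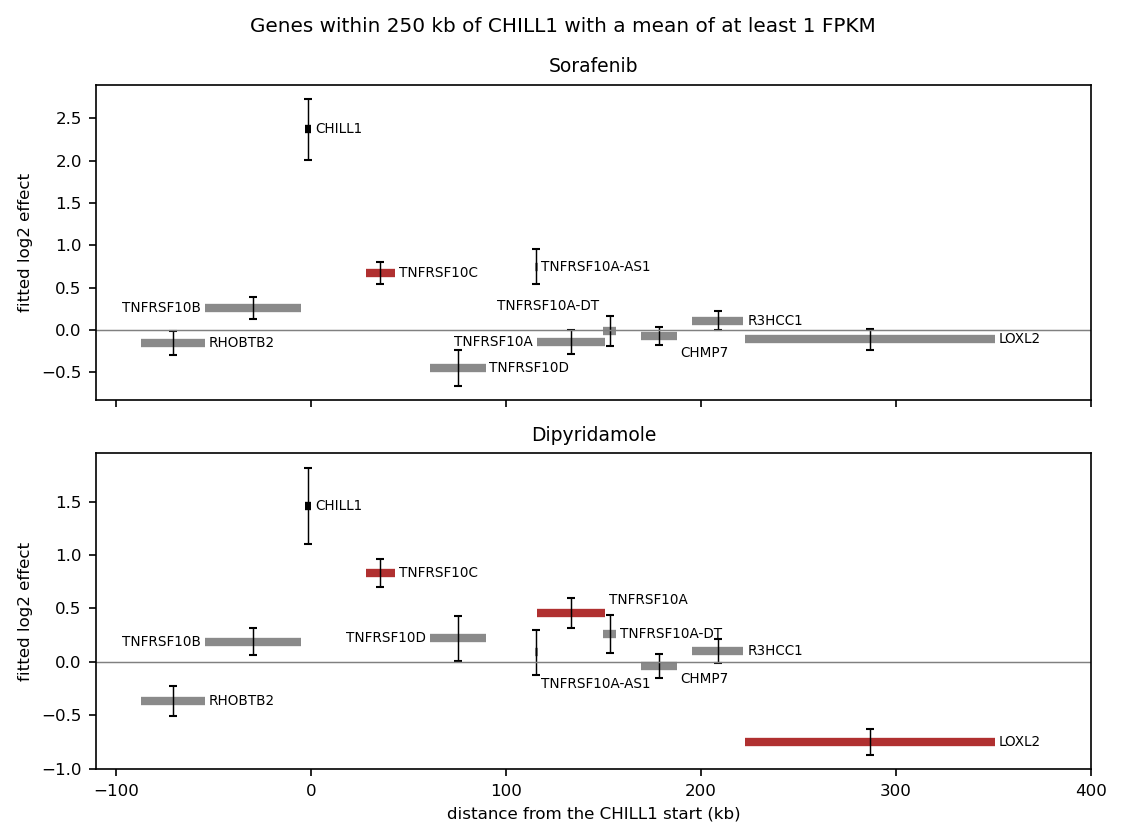
Fitted effects of sorafenib (upper panel) and dipyridamole (lower panel) on the log2 scale, with standard errors, for the 11 genes within 250 kb of CHILL1, against distance from the CHILL1 start in kb (bars span the gene body, red where limma's adjusted p passed 0.05, black for CHILL1, which was not tested). CHILL1 and TNFRSF10C are the highest in the lower panel and LOXL2 the lowest.

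The ligands themselves were at or near 0. TNFSF10, the TRAIL gene, and FASLG, the FAS ligand gene, were listed at 0 reads in all 8 libraries, where 3 reads would equal 0.166 to 0.197 and 0.128 to 0.152 FPKM. TNF and LTA had means of 0.0349 and 0.0553 FPKM, and the soluble TRAIL-binding receptor TNFRSF11B had 1.62 to 4.24 FPKM. RIPK3, the kinase of the necroptosis branch, was also at 0 in all 8 libraries.

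Of 45 further genes of the pathway in 6 lists, 38 were tested. With dipyridamole 11 of the 38 rose and 3 fell, with a median effect of 0.15 against 0.07 over all genes, and with sorafenib 6 rose and 1 fell, with a median of 0.23 against 0.09. None passed between the cells. Of all genes 30% and 8.11% passed in these comparisons, and no test of the lists as sets was made.

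Of 10 tested genes of adaptors and kinases, 3 rose and 1 fell with dipyridamole and 1 rose with sorafenib. TRAF1, a signalling adaptor of TNF receptors, rose with both drugs, by 0.96 ± 0.19 with dipyridamole and by 1.29 ± 0.19 with sorafenib (limma adjusted p = 0.00604 and 0.00778), from 0.677 FPKM in control cells on control treatment to 7.38 with both drugs. TRADD, the adaptor that binds TNFRSF1A, rose with dipyridamole by 0.85 ± 0.13 (0.00184) and the deubiquitinase gene CYLD by 0.65 ± 0.12 (0.00466). TRAF2, the adaptor that recruits ubiquitin ligases, fell by 0.38 ± 0.10 (0.0174), a call lost without control cells on control treatment (0.0615) or SLC29A2 cells on sorafenib (0.0742). The FADD effects were 0.28 ± 0.16 for sorafenib and 0.03 ± 0.16 for dipyridamole.

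Both further death receptor genes that were tested rose with dipyridamole. TNFRSF25 (DR3) did so by 0.46 ± 0.11 (limma adjusted p = 0.0165), a call lost without the SLC29A2-cell libraries on control treatment (0.0598) or sorafenib (0.051). TNFRSF21 (DR6) rose by 0.44 ± 0.15 (0.0497), a call lost whichever of the 8 libraries was left out (0.0614 to 0.164).

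Among 10 genes of caspases and the mitochondrial branch, 2 rose and 1 fell with sorafenib. The initiator caspases CASP10 and CASP9 rose by 0.60 ± 0.15 and 0.55 ± 0.13 (limma adjusted p = 0.0451 and 0.0398). Both of these calls were lost whichever library was left out, with adjusted p-values of 0.0572 to 0.144. With dipyridamole HTRA2, a mitochondrial protease, rose by 0.62 ± 0.15 (0.0163), a call lost without the SLC29A2-cell libraries on control treatment (0.0551) or dipyridamole (0.0621). APAF1, the apoptosome scaffold, named after its value was seen, fell by 0.46 ± 0.14 (0.0389), a call lost without 6 of the 8 libraries in turn (adjusted p up to 0.132).

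Of the 5 inhibitor of apoptosis genes, BIRC5 (survivin) fell by 1.41 ± 0.23 with dipyridamole (limma adjusted p = 0.00268) and held that call without any single library. XIAP rose by 0.68 ± 0.20 (0.0287) in 3 of 4 pairs, a call lost without 5 of the 8 libraries in turn (adjusted p up to 0.0904), and none passed with sorafenib.

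Of the 10 transcription regulators and indicator targets, 4 rose with dipyridamole and 3 with sorafenib. DDIT3 (CHOP), a stress-induced factor known to act on the DR5 gene, rose by 1.90 ± 0.15 with dipyridamole (limma adjusted p = 7.87e-05), and its target TRIB3 by 1.79 ± 0.19 (0.000347). Both also rose with sorafenib, DDIT3 by 0.63 ± 0.15 (0.0366, lost without 5 of the 8 libraries in turn, up to 0.124) and TRIB3 by 1.09 ± 0.19 (0.0156, lost without the control-cell dipyridamole library, 0.0656). CDKN1A, the gene of a cell cycle inhibitor, rose by 0.52 ± 0.12 with dipyridamole (0.0138, lost without SLC29A2 cells on control treatment, 0.054). RELA, an NF-kB subunit named after its value was seen, rose by 0.39 ± 0.10 with dipyridamole (0.0162), a call lost without 3 of the 8 libraries in turn (up to 0.073).

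Some of these pathway calls also depended on a pair of libraries or on scaling. Without both control-cell dipyridamole libraries the limma calls of BIRC5 (-1, adjusted p = 0.0699), CYLD (0.48, 0.0548), XIAP (0.39, 0.279), APAF1 (-0.37, 0.186) and TRAF2 (-0.41, 0.0628) with dipyridamole were lost, as was that of TRAF1 with sorafenib (1.14, 0.0588). The calls of TNFRSF21 (0.41, 0.146) with dipyridamole and of CASP10 (0.53, 0.103), CASP9 (0.56, 0.086) and DDIT3 (0.53, 0.129) with sorafenib were lost in that fit too. With median-of-ratios size factors TNFRSF25 (0.0632), HTRA2 (0.0516), CDKN1A (0.0728) and RELA (0.104) with dipyridamole and DDIT3 (0.0574) with sorafenib were lost. So were TNFRSF21 (0.0634) with dipyridamole and CASP10 (0.0757) and CASP9 (0.0803) with sorafenib. Without the filter on low values 12 calls of the lists were lost, among them TRAF1 (0.0703) and TRIB3 (0.0924) with sorafenib. DDIT3, TRIB3, TRADD and TRAF1 with dipyridamole passed under every alternative that was run.

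**Figure D5:**
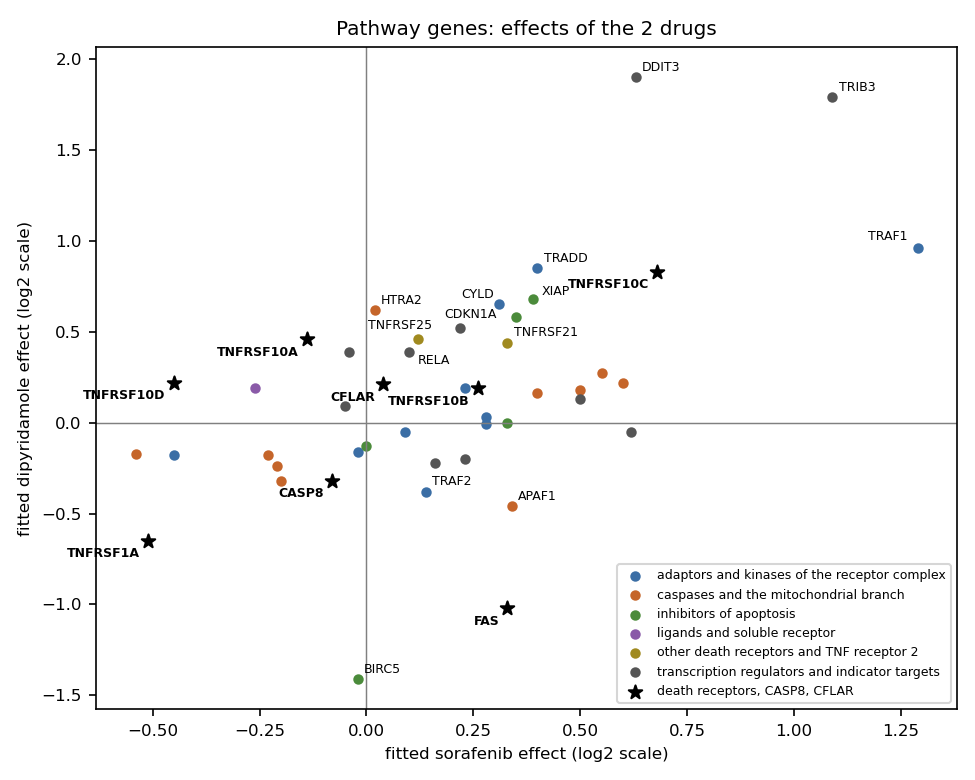
Fitted sorafenib effect (horizontal axis) and dipyridamole effect (vertical axis) on the log2 scale for the 38 tested pathway genes (circles, coloured by list and named where the dipyridamole effect passed) and the 8 protein-coding receptor and caspase genes (stars); both fits use the same 8 libraries. TRAF1, TRIB3 and DDIT3 lie far to the upper right, BIRC5 and FAS at the bottom and TNFRSF1A at the lower left.

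Some epithelial markers changed with dipyridamole as well. Of the 3 of 5 with a mean of at least 1 FPKM, KRT8 fell by 1.36 ± 0.18 and KRT18 fell by 1.87 ± 0.12 (limma adjusted p = 0.00082 and 4.71e-05). KRT19 went the other way without passing, from 49.84 ± 22.0 to 69.3 ± 9.26 FPKM (SD, n = 4 libraries; 0.57 ± 0.23, limma adjusted p = 0.0954). The sum over the 5 genes, carried by KRT8 and KRT18, was 733 to 1075 FPKM with dipyridamole and 2019 to 2781 without it, with EPCAM and CDH1 near 0. The hepatocyte sum was 4.09 to 5.91 FPKM with sorafenib and 1.98 to 2.62 without, carried by SERPINA1, with APOA2 and TTR at 0. The part of either in the receptor results was not tested.

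Across the interactions, none of the 8 genes passed for dipyridamole by cell type in limma, nor did any of all genes (0%). At an unadjusted p under 0.05 there were 3 of the 8, TNFRSF10B, TNFRSF10D and FAS, against 2756 of all 13899, and voom called 0. The effect was negative for all 8, with a median of -0.38 against -0.14 over all genes. By that median most of all genes were negative too, and their exact share was not counted. Of the 2756 genes at an unadjusted p under 0.05, 1977 were negative. For sorafenib by dipyridamole 0 of 8 passed, where 0.0863% of all genes did. At an unadjusted p under 0.05 there were 2 of the 8 (TNFRSF1A and CFLAR), against 1839 of all 13899, and voom called 0. For sorafenib by cell type 0 of 8 passed, 0 at an unadjusted p under 0.05 and 0 by voom, where 0% of all genes passed.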

How the data were processed

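The authors deposited 1 table of FPKM per library, each with 58310 lines, of which 8 without a gene identifier were left out. Per the submitters' processing notes the build was GRCh38.p12 and the tools edgeR, HTSeq 0.6.1 and TopHat2 2.0, with no role stated. Poly(A) RNA was selected, per the labels' protocols, and strand was not stated. Symbols and positions came from GENCODE release 29, which matched 58039 genes. FPKM times gene length fell on whole reads for 93.76% of values under 100 reads (tolerance 0.01), which gave 14.07 to 16.69 M reads per library. Intervals and floors cover counting error only.

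Values were taken as log2(FPKM + 1) after a minimum mean of 1 FPKM. An additive model of cell type, sorafenib and dipyridamole was fitted (R 4.3.3; limma 3.58.1, variance trend), and each interaction was added singly. The script was tested on simulated data. Nothing says that libraries came from separate cultures, so p-values measure only the spread between these 8 libraries.

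Members and lists were chosen with earlier results of these data known, and CHILL1, which passed the filter through its sorafenib libraries, was given no p-value. Named were the 9 genes, up to 4 called genes per list by size of change, all genes within 250 kb of CHILL1 with a mean of at least 1 FPKM, and the 5 genes most like CHILL1 and TNFRSF10B. Some list genes that the rule would name are not reported here by name, though the lists' counts include them. Alternatives were another pseudocount, no filter, median-of-ratios size factors, no variance trend, voom on recovered reads, all interactions together, and leaving out each library or both control-cell dipyridamole libraries.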

Additional observations from a re-analysis of the deposited data

Results flagged for a closer look

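For 6 interactions the library pairs at 1 level of a factor moved one way and those at the other level the opposite way, and each was tested with limma over all genes. The 6 were picked by this pattern in the same libraries, so the pattern itself is no support. How many of all genes show it was not counted. CASP8 moved up with sorafenib without dipyridamole and down with it, a difference of -0.31 (adjusted p = 0.574). CFLAR did the same, with a difference of -0.83 (adjusted p = 0.257). With dipyridamole TNFRSF10B was higher in control cells and not in SLC29A2 cells, a difference of -0.5 (adjusted p = 0.164), and TNFRSF10D was higher in control cells and lower in SLC29A2 cells, a difference of -1.14 (adjusted p = 0.106). FAS in SLC29A2 against control cells was higher without dipyridamole and lower with it, a difference of -1.09 (adjusted p = 0.106). TNFRSF10C in SLC29A2 against control cells differed by -0.26 between libraries with and without sorafenib (adjusted p = 1). None of the 6 passed the threshold.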

How the results depend on the processing

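No paired analysis was possible because the labels carry no replicate numbers to use as a block, and the library pairs of the report are those of the factorial design. CHILL1 is left out of the counts that follow. Members called higher with sorafenib numbered 1 in the reported fit, 0 without the filter on low values, 3 with all interactions, 0 without both control-cell dipyridamole libraries, and 0 to 1 with 1 library left out. Members called lower numbered 0, with 1 by voom on recovered reads, 2 with all interactions, and 0 to 1 with 1 library left out. With dipyridamole 2 were called higher, 1 without the filter, with size factors, without the variance trend or without both control-cell dipyridamole libraries, 5 with all interactions, and 1 to 2 with 1 library left out. Called lower were 2, with 1 without the filter and 2 in each fit with 1 library left out. The fit with all interactions had only the interaction of all 3 factors as its error term. Its larger counts are therefore weaker evidence than those of the other fits. Over all genes the sorafenib calls numbered 1127 of 13899, 136 of 31551 without the filter, 1635 of 13874 by voom and 4839 of 13899 with all interactions. They numbered 310 of 13658 without both control-cell dipyridamole libraries and 267 to 913 with 1 library left out. The dipyridamole calls numbered 4173 of 13899, 2622 of 31551 without the filter and 7411 of 13899 with all interactions. Of 13899 they were 4156 with size factors and 3993 without the variance trend. They numbered 3175 of 13658 without both control-cell dipyridamole libraries and 2932 to 3627 with 1 library left out. The fits with 1 library left out tested 13736 to 13963 genes. Size factors moved the share of higher calls from 73.2% to 47.6% with sorafenib and from 58.2% to 44.7% with dipyridamole, and the median sorafenib effect of all genes from 0.089 to -0.019.

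Effects that turned sign all lay short of the threshold in the reported fit or, for CHILL1, were not tested. Of them, the dipyridamole effects of TNFRSF10B (0.19, limma adjusted p = 0.0426) and TNFRSF10D (0.22, 0.0344) passed in the fit with all interactions. With size factors the effects that turned sign were CFLAR (-0.08) and R3HCC1 (-0.01) with sorafenib and TNFRSF10C (0.07) between the cells. By voom it was TNFRSF10A-DT (0.01) with sorafenib. Without both control-cell dipyridamole libraries they were TNFRSF10A (0) with sorafenib, TNFRSF10B (-0.06), TNFRSF10D (-0.35), CHMP7 (0.13) and TNFRSF10A-AS1 (-0.06) with dipyridamole, and TNFRSF10C (0.06), TNFRSF10D (0.47), FAS (0.3), CFLAR (0.01) and CHILL1 (-0.34) between the cells. With 1 library left out the sorafenib effects ranged from -0.23 to 0.01 for TNFRSF10A, -0.16 to 0.03 for CASP8, -0.13 to 0.23 for CFLAR (turning sign at -0.04 as well), -0.17 to 0 for CHMP7 and -0.09 to 0.1 for TNFRSF10A-DT, and the dipyridamole effects from -0.11 to 0.06 (0.02 as well) for CHMP7 and -0.12 to 0.23 for TNFRSF10A-AS1. Between the cells they ranged from -0.03 to 0.13 (-0.02 as well) for TNFRSF10B, -0.1 to 0.06 (0.02 as well) for TNFRSF10C, -0.28 to 0.1 (0.05 as well) for TNFRSF10D, -0.36 to 0 for CFLAR and -0.3 to 0.42 (-0.03, -0.21 and -0.29 as well) for CHILL1. The cause was not tested. Depth limits CHILL1 most, at 1 read in each library on control treatment.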
